A study of Rattus norvegicus with 12 samples.

Results

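The insulin-like growth factor (IGF) family was followed in 12 sequenced libraries of neonatal rat heart muscle cells. The genes were taken by symbol: the ligands Igf1 and Igf2, the receptors Igf1r and Igf2r, and the binding proteins Igfbp2, Igfbp3, Igfbp4, Igfbp5, Igfbp6 and Igfbp7. These 10 genes, of 32883 in the tables, were all found, and all 10 were among the 13793 that passed the filter on low values. Cardiomyocytes came from Sprague-Dawley rats 1 to 3 days old. All groups had AraC (cytosine arabinoside, which stops dividing cells) at 10 µM until the last day before treatment, 7% serum in the first day only, and a supplement labelled ITS from the next day on. For 24 h cells then had acetic acid as vehicle, 100 nM of the peptide endothelin-1 (ET-1), or 10 µM of phenylephrine (PE), which activates alpha-1 adrenergic receptors. Each of these was given either with DMSO, which all groups without JQ1 therefore share, or with 1 µM JQ1, a small molecule that displaces BET bromodomain proteins from acetylated histones. The 6 groups had 2 libraries each, replicate 1 and replicate 2, and the 3 treatments with DMSO are called vehicle, ET-1 and PE below. Whether replicates came from separate cultures or animals is not labelled, so each p-value reflects the spread of these samples alone, and that spread may be technical.

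IGF-1 and IGF-2 signal through the receptor tyrosine kinase IGF1R to the PI3K-AKT-mTOR and ERK pathways, which in heart muscle promote growth and survival. The type 2 receptor, IGF2R, is the cation-independent mannose 6-phosphate receptor. It sorts lysosomal enzymes, takes up IGF-2 for degradation, and has no kinase of its own. IGFBP2 to IGFBP6 bind the ligands outside the cell, where they carry them, hold them in the matrix or keep them from the receptor, and are cut by proteases. IGFBP7 binds IGFs only weakly and is a secreted matrix and vessel protein that is measured in blood as a marker of heart failure. In the heart much of the IGF and IGFBP supply comes from non-muscle cells.

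The promoter sequences of the receptors and of a pair of binding proteins are shown because these genes moved in different directions: Igf2r rose and Igfbp5 fell with JQ1, Igf1r was higher with the agonists, and Igfbp3 was lower with both. Each line gives the 160 bases before the annotated start, 5′ to 3′ on the gene's strand, from RefSeq on build GRCr8, at chr1:50526718-50526877 (plus strand) for Igf2r, chr1:130959837-130959996 (plus) for Igf1r, chr9:81914188-81914347 (minus) for Igfbp5 and chr14:86277945-86278104 (minus) for Igfbp3. Capitals mark exact matches to the motifs searched below.
Igf2r: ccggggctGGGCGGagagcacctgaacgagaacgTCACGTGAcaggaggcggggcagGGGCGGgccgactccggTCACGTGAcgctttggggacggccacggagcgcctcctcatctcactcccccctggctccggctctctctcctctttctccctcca
Igf1r: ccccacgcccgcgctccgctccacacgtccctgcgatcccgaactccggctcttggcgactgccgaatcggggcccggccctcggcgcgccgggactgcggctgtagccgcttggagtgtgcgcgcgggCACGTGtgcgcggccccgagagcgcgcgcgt
Igfbp5: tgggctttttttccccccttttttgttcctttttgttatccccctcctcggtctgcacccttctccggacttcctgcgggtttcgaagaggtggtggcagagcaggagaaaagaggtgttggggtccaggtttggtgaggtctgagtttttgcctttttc
Igfbp3: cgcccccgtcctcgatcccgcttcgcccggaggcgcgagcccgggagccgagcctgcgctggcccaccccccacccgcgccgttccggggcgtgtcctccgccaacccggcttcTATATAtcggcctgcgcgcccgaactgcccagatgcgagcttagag
All 10 genes matched at least 1 of the 33469 RefSeq promoter windows of 300 bases (250 before the start, 50 after), and Igf2 matched 2, giving 11 windows. The E-box CACGTG, the core that bHLH factors such as the Myc, USF and TFE3 families bind, was searched on both strands, and so were TATAAA, the GC box GGGCGG, the variant TATATA and the AP-1 site TGANTCA. The E-box lay in 6.42% of all windows and in those of Igf2r, Igf1r and Igfbp2. The Igf2r window held 2 copies, each inside the longer palindrome TCACGTGA, at positions −126 to −119 and −86 to −79 from the start. That longer motif, chosen after the sequence was read, occurred in 0.777% of all windows and at least 2 times in 0.0418% of them (14 windows). A GC box was present in 33.1% of windows and in 6 of the 11 here, those of Igf2, Igf1r, Igf2r, Igfbp2 and Igfbp7, the last with 4 copies. TATAAA (14.2% of windows) was found only at Igfbp4 among the 10 genes, TATATA (6.15%) only at Igfbp3, and TGANTCA (7.33%) at none. The Igfbp5 and Igf1 windows held none of the 6 motifs, at a GC content of 50.7% and 48.3% against 78.0% for Igf1r and a median of 51.7% over all windows. Igfbp6 held none of them either, and these matches describe letters only.

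Levels are FPKM (fragments per kilobase of transcript, scaled to library size), summed by gene and rescaled between libraries, and can be compared between genes because they are per length. In vehicle the mean levels were led by Igf2r at 122 ± 48.7 (SD; n = 2 in every group) and Igfbp7 at 83.8 ± 4.19. Igfbp3 (13.2 ± 11.7), Igfbp4 (10.7 ± 6.14) and Igfbp6 (8.02 ± 7.81) followed, and their order is within the spread between replicates. Igf1r (5.13 ± 0.48), Igfbp5 (4.81 ± 2.25), Igfbp2 (4.05 ± 1.89) and Igf2 (4.03 ± 0.0472) lay close together, and Igf1 was lowest at 2.27 ± 1.29. Thus the mRNA of the mannose 6-phosphate receptor exceeded that of the signalling receptor 32.7-fold and 16.1-fold in the 2 vehicle libraries, and over all 12 libraries by 9.99 to 51.8-fold. Igf2 exceeded Igf1 by 1.26-fold and 2.98-fold in the vehicle libraries, but was below it in replicate 1 of ET-1 and of PE (ratios of 0.849 and 0.627).

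**Figure D1:**
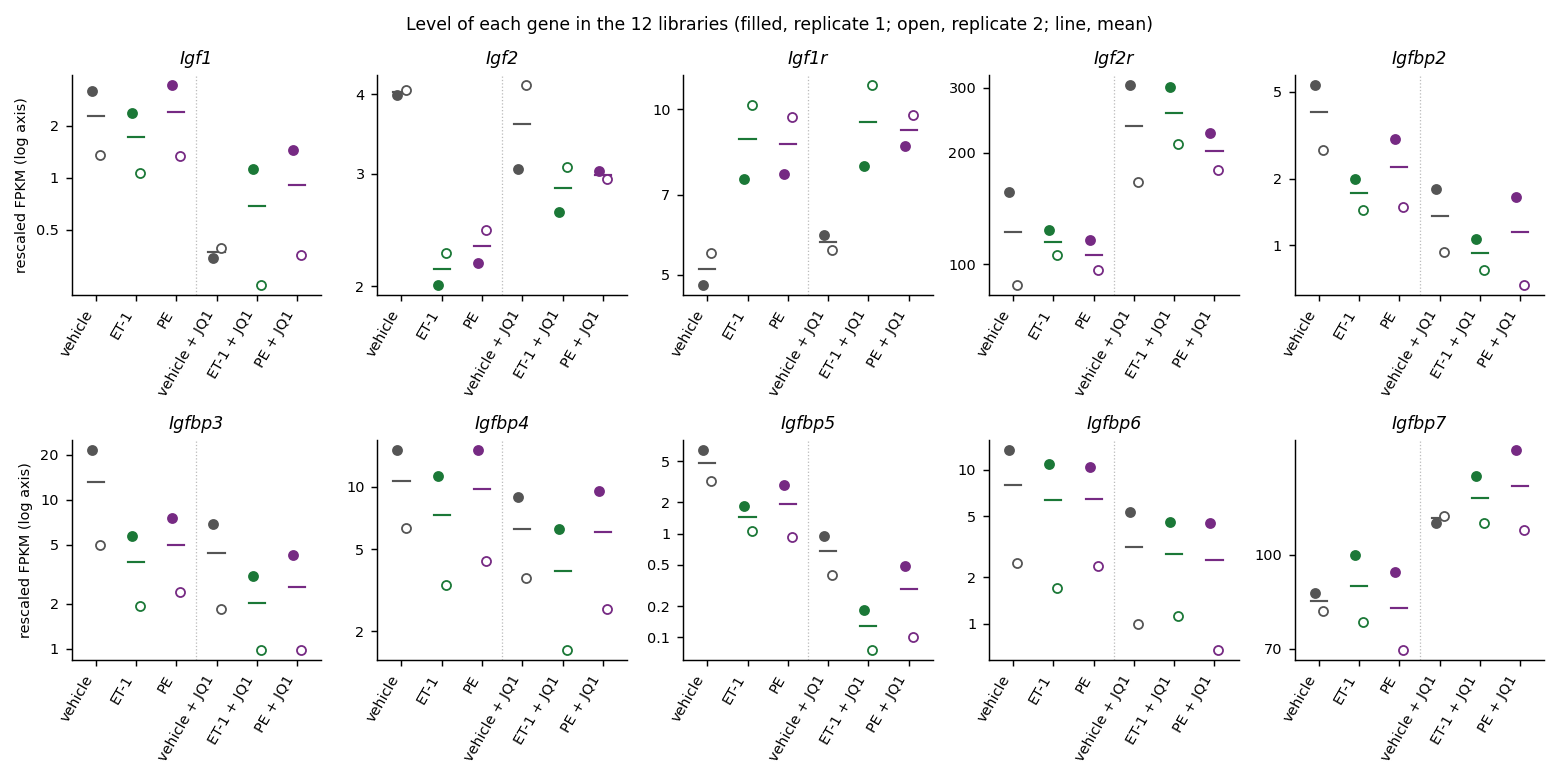
Rescaled FPKM (log axis, own scale per gene) of the 10 genes in the 6 groups, with filled points for replicate 1, open points for replicate 2 and a line at the mean. Igf2r and Igfbp7 stand higher in all 6 libraries with JQ1 than in any without it, and Igfbp5 reaches at most 0.948 with JQ1, a range that holds a single library without it (PE replicate 2, at 0.937).

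The library check bears on the binding proteins. Cardiomyocyte markers were abundant: 8 of 9 listed genes were in the tables and summed to 12200 to 22200 rescaled FPKM, with troponin T (Tnnt2) at 5090 to 14800. The 9 fibroblast markers (collagens, Pdgfra, Dcn, Lum, Tcf21, Postn and Thy1) summed to 111 to 1340 with none at 0, and in all 6 groups replicate 1 exceeded replicate 2, by 4.09 to 5.21-fold. The matrix genes Col3a1, Col1a1, Col1a2 and Postn (medians 167, 88.2, 79.0 and 70.7) made up most of this sum. The rest had medians of 0.718 (Pdgfra) to 4.98 (Dcn). The 9 macrophage markers summed to 0.561 to 10.6 (Adgre1 listed at 0 in 3 libraries), the 6 epicardial markers to 3.45 to 22.0, the 7 endothelial markers found of 8 to 4.02 to 10.2 (Vwf listed at 0 in 7 libraries, Emcn in 5, Cdh5 in 2), and the 7 mural markers to 388 to 874. In all 6 groups replicate 1 was higher for these lists too. The ratio was 2.27 to 6.42 for macrophage, 2.05 to 2.81 for epicardial, 1.3 to 2.12 for endothelial and 1.12 to 1.9 for mural markers. Replicate 1 was also the higher in all 6 groups for Igfbp6 (4.09 to 6.75-fold), Igfbp3 (2.94 to 4.36-fold), Igfbp4 (2.37 to 3.84-fold), Igfbp5 (1.76 to 4.83-fold), Igfbp2 (1.38 to 2.51-fold) and Igf2r (1.17 to 1.84-fold), and in 5 of 6 for Igf1 (0.872 to 4.75). The ratio lay nearer 1 for Igfbp7 (0.969 to 1.35), Igf1r (0.713 to 1.07) and Igf2 (0.736 to 1.03). For this reason each comparison below is given without and with the replicate number as a block, which compares libraries of the same number. In bulk RNA, fewer cells of a type and less RNA per cell cannot be told apart.

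**Figure D2:**
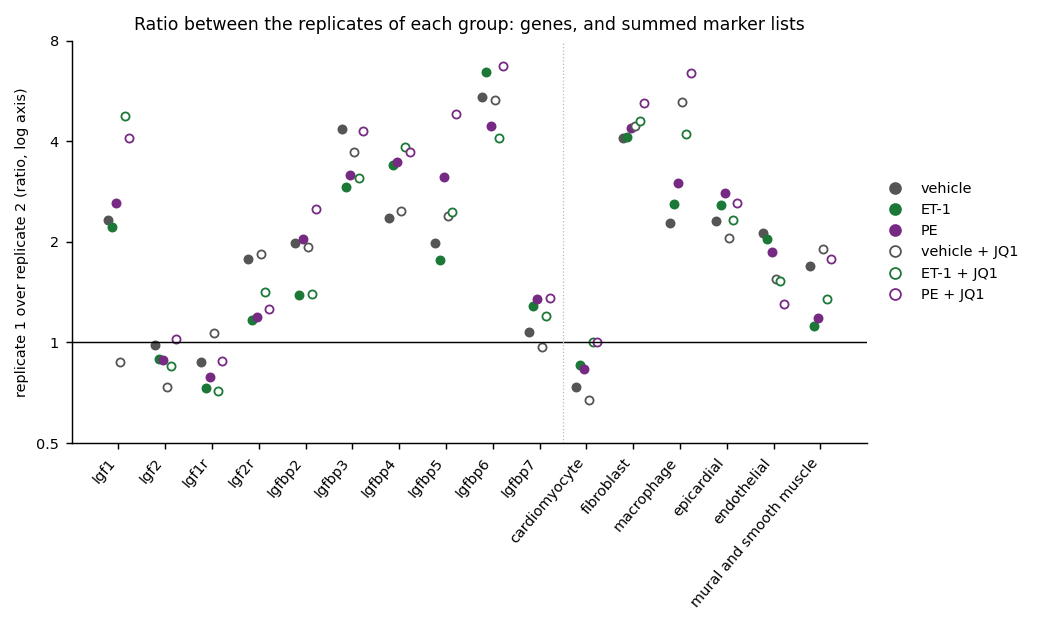
Ratio of replicate 1 to replicate 2 (log axis) in each of the 6 groups for the 10 genes and for 6 summed marker lists; filled points are groups without JQ1 and open points groups with JQ1. The points of Igf2r and Igfbp2 to Igfbp6 (1.17 to 6.75) lie above 1 in all 6 groups. Those of the fibroblast (4.09 to 5.21), macrophage (2.27 to 6.42), epicardial (2.05 to 2.81), endothelial (1.3 to 2.12) and mural (1.12 to 1.9) lists do so too. Igf2, Igf1r and Igfbp7 lie near 1 with the cardiomyocyte list (0.673 to 1.0).

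Among the ligands, Igf2 fell with both agonists and Igf1 fell with JQ1. Igf2 (ENSRNOG00000020369, chr1:215828102-215846911 on rn6, minus strand), the imprinted fetal growth factor, stood at 3.99 and 4.06 rescaled FPKM in the vehicle libraries. With ET-1 its levels were 2.01 and 2.26, and with PE 2.18 and 2.45. Both agonist groups lay below both vehicle libraries with no overlap. The difference was −0.78 ± 0.14 (log2 ± SE) with ET-1 (limma, adjusted p = 0.0353; 0.00427 with the replicate block) and −0.69 ± 0.14 with PE (adjusted p = 0.0339; 0.00496 with the block). Both comparisons share the vehicle libraries. The reads of Igf2 were spread over 3 transcripts of 3507, 3519 and 4494 nt whose shares jumped between replicates (the first held 99.5% and 98.7% in vehicle, 0.0% and 55.1% with ET-1), so the isoform cannot be told. When the transcripts were weighted by length the ET-1 call held (−0.68, adjusted p = 0.0333) and the PE difference missed the threshold (−0.48, adjusted p = 0.0585). With only the vehicle and agonist groups in the fit neither passed (adjusted p = 0.16 and 0.127). Both calls were also lost when either library of vehicle, ET-1, PE or PE plus JQ1 was left out, one at a time (adjusted p = 0.0595 to 0.188 for ET-1 and 0.0526 to 0.166 for PE).

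With JQ1 present the contrast between agonist and vehicle was smaller. Igf2 stood at 3.05 and 4.14 with vehicle plus JQ1, 2.62 and 3.08 with ET-1 plus JQ1, and 3.03 and 2.95 with PE plus JQ1. The ET-1 and PE differences were then −0.28 ± 0.14 and −0.22 ± 0.14, past the threshold in neither fit (adjusted p = 0.369 and 0.524; 0.128 and 0.225 with the block). The effect of JQ1 was −0.16 ± 0.14 in vehicle, 0.35 ± 0.14 with ET-1 and 0.31 ± 0.14 with PE (adjusted p = 0.439, 0.0963 and 0.128; with the block 0.254, 0.0262 and 0.0391). The difference between those effects, which asks whether JQ1 acted differently under the agonist, was 0.50 ± 0.20 for ET-1 and 0.47 ± 0.20 for PE, and neither passed (adjusted p = 1.0 and 0.959; 0.306 and 0.281 with the block). A weaker agonist effect under JQ1 was thus not shown for Igf2. Averaged over the treatments the JQ1 difference was 0.17 ± 0.08 (adjusted p = 0.118; 0.0407 with the block).

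Igf1 (ENSRNOG00000004517, chr7:28412198-28486609, plus strand), the main postnatal ligand, was low throughout. Its levels were 3.18 and 1.36 in vehicle, 2.37 and 1.07 with ET-1, and 3.48 and 1.33 with PE. With JQ1 they were 0.343 and 0.393 in vehicle, 1.13 and 0.238 with ET-1, and 1.45 and 0.357 with PE. All 6 same-numbered pairs were lower with JQ1, although ranges overlapped for ET-1 and PE. Averaged over the 3 treatments the JQ1 difference was −1.20 ± 0.35 (limma, adjusted p = 0.0175), and it passed in all 12 fits that left out 1 library. Within single treatments it was −1.59, −0.95 and −1.06 for vehicle, ET-1 and PE, past the threshold only with the block (adjusted p = 0.0785, 0.254 and 0.21; 0.00238, 0.0225 and 0.0143 with the block). Relative to the summed fibroblast markers described above, which were also lower with JQ1, the Igf1 level with JQ1 was 0.219 to 0.829 of that with DMSO in the same-numbered pairs. Other marker lists, given below, moved as well. The macrophage sum went from 10.6 and 4.68 to 4.38 and 0.837 with JQ1 in vehicle. It went from 8.98 and 3.46 to 3.54 and 0.839 with ET-1, and from 8.46 and 2.82 to 3.6 and 0.561 with PE. Igf1 was not set against that sum, so whether Igf1 fell beyond the macrophage markers was not tested. Neither agonist changed Igf1 past the threshold in either fit; the differences were −0.31 ± 0.61 for ET-1 and 0.04 ± 0.61 for PE.

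The receptors responded to different agents. Igf2r (ENSRNOG00000014997, chr1:48176106-48264477, plus strand, 1 transcript of 8787 nt) rose with JQ1. Levels were 157 and 87.9 in vehicle, 124 and 106 with ET-1, and 116 and 96.8 with PE. With JQ1 they were 306 and 167, 301 and 212, and 226 and 180. The lowest library with JQ1 lay above the highest without it, and the 6 pair ratios ran from 1.86 to 2.43. The mean difference was 1.00 ± 0.20 (adjusted p = 0.00308). Taken singly, only the ET-1 comparison passed without the block (1.14 ± 0.35, adjusted p = 0.0357), against 0.94 in vehicle and 0.93 with PE (0.0747 and 0.0713), and all 3 passed with it (0.00095, 0.0027 and 0.00256). The ET-1 call was lost on the deposited scale (1.03, adjusted p = 0.11), with no filter on low values (adjusted p = 0.0596), and without either library of ET-1, PE or ET-1 plus JQ1 (0.0501 to 0.151). Neither agonist moved Igf2r past the threshold, with or without JQ1, in either fit (differences −0.16 to 0.16). Igf2r was also the best covered of the 10 genes, with 2260 to 7830 kb of aligned bases per library. A small RNA gene (RF00561) on the opposite strand inside the Igf2r span was listed at 1.767 to 6.768, and its part in the Igf2r value was not tested.

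Igf1r (ENSRNOG00000014187, chr1:128924966-129206516, plus strand, 1 transcript of 4104 nt) stood higher with each agonist, without and with JQ1. Its levels were 4.79 and 5.47 in vehicle, 7.46 and 10.2 with ET-1, and 7.63 and 9.69 with PE. With JQ1 they were 5.92 and 5.55, 7.90 and 11.1, and 8.57 and 9.76. All 8 libraries with an agonist lay above all 4 without. The differences were 0.72 ± 0.20 for ET-1 and 0.69 ± 0.20 for PE without JQ1, and 0.66 and 0.63 with it. None passed without the block (adjusted p = 0.0963, 0.0793, 0.152 and 0.176), and all 4 rose past the threshold with it (0.0102, 0.0087, 0.0187 and 0.0226). The JQ1 differences were 0.15 ± 0.20, 0.09 ± 0.20 and 0.08 ± 0.20, and the smallest adjusted p of the 3 was 0.605, or 0.359 with the block. The ratio of Igf2r to Igf1r mRNA was higher with JQ1 in each same-numbered pair. It went from 32.7 and 16.1 in vehicle to 51.8 and 30.0 with JQ1, from 16.6 and 10.4 to 38.1 and 19.1 under ET-1, and from 15.1 and 9.99 to 26.4 and 18.5 under PE.

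**Figure D3:**
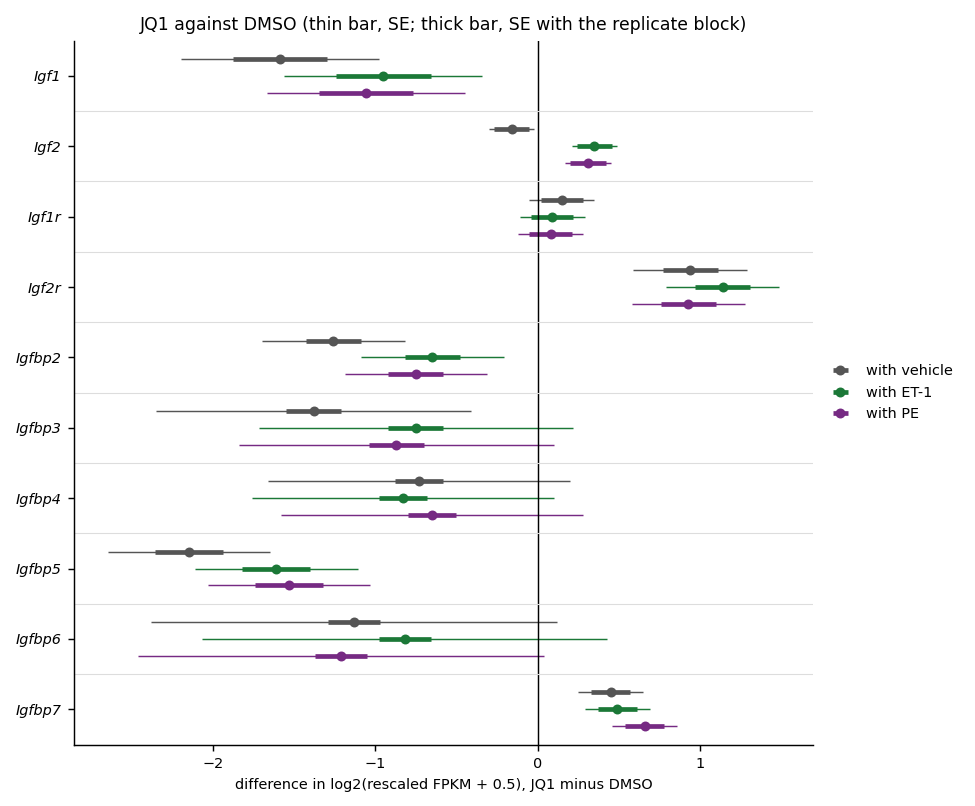
Difference between JQ1 and DMSO in log2(rescaled FPKM + 0.5) for each gene with vehicle, ET-1 and PE; thin bars are the SE of the fit without the replicate block and thick bars the SE with it. Igf2r and Igfbp7 lie above 0 and Igf1, Igfbp2, Igfbp3, Igfbp4, Igfbp5 and Igfbp6 below 0 in all 3 treatments, with Igfbp5 lowest (−2.15, −1.61 and −1.53).

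Among the binding proteins, Igfbp5 fell furthest with JQ1. Igfbp5 (ENSRNOG00000017206, chr9:80150211-80167033, minus strand), which binds the extracellular matrix and IGFs, stood at 6.41 and 3.22 in vehicle, 1.85 and 1.05 with ET-1, and 2.94 and 0.937 with PE. With JQ1 the levels were 0.948 and 0.395 in vehicle, 0.184 and 0.0749 with ET-1, and 0.486 and 0.101 with PE. The groups with and without JQ1 did not overlap within any treatment, and mean levels with JQ1 were 0.14, 0.0892 and 0.151 of those with DMSO. The log2 differences, which the added 0.5 makes smaller for such low values, were −2.15 ± 0.50, −1.61 ± 0.50 and −1.53 ± 0.50 (adjusted p = 0.0133, 0.0359 and 0.0438). Averaged over the treatments the difference was −1.76 ± 0.29 (adjusted p = 0.000958), and it held in all 12 fits that left out 1 library. Igfbp5 reached 1 rescaled FPKM in 5 libraries, all of them without JQ1. It thus passed the filter only through the groups where it was high. With no filter on low values the averaged difference was again −1.76 (limma, adjusted p = 0.002). The single calls were less firm. With a pseudocount of 1 the ET-1 and PE calls were lost (adjusted p = 0.0585 and 0.0577), as they were with no filter (0.0578 and 0.0703) and on the deposited scale (0.0549 and 0.0674). The PE call was also lost with only the 2 PE groups fitted (0.122) and without 9 of the 12 libraries, one at a time, with a difference of −0.90 without PE replicate 1 (adjusted p = 0.245). It was kept only without a vehicle library or without PE replicate 2. The ET-1 call was lost without any of its own 4 libraries (0.0629 to 0.172), and the vehicle call without vehicle replicate 1 or vehicle plus JQ1 replicate 2 (0.0832 and 0.08). The lowest library, ET-1 plus JQ1 replicate 2, had 1.12 kb of aligned bases on Igfbp5 against 102 kb in vehicle replicate 1.

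Igfbp5 was also lower with the agonists. The ET-1 and PE differences without JQ1 were −1.41 ± 0.50 and −1.19 ± 0.50, below vehicle with no overlap, and passed only with the block (adjusted p = 0.171 and 0.202; 0.00546 and 0.00746 with the block). With JQ1 present they were −0.86 and −0.56 (adjusted p = 0.423 and 0.65; 0.039 and 0.119 with the block). The lowest mean of the 6 groups was therefore that of ET-1 plus JQ1 at 0.129 ± 0.0772, next to 4.81 ± 2.25 in vehicle. The fibroblast marker sum with JQ1 was 0.452 to 0.661 of that with DMSO in same-numbered libraries, and all 9 of its genes fell in each treatment with the block (none passed without it). Set against that sum, the Igfbp5 level with JQ1 was 0.138 to 0.3 of that with DMSO in the 6 pairs. The fibroblast sum was also lower with the agonists, at 1340 and 329 in vehicle, 884 and 215 with ET-1, and 965 and 220 with PE. With the block 7 of its 9 genes fell with ET-1 and 4 with PE (none passed without it), beside the lower Igfbp2, Igfbp3, Igfbp5 and, with ET-1 only, Igfbp4. As a percentage of that sum, Igfbp3 was 1.6 and 1.5 in vehicle, 0.641 and 0.898 with ET-1, and 0.786 and 1.09 with PE. Igfbp5 was 0.477 and 0.98, 0.21 and 0.49, and 0.304 and 0.426. Igfbp2 was 0.4 and 0.825, 0.227 and 0.676, and 0.316 and 0.679. Igfbp4 was 1.12 and 1.93, 1.28 and 1.56, and 1.57 and 1.99. Other marker lists moved with JQ1 as well. With the block 6 of 7 mural genes fell in each treatment (2, 3 and 3 without it). Their sum hardly moved in vehicle (726 and 430 against 741 and 390 with JQ1). Most of that sum was 1 gene, Tagln (median 501), so it says little of the other mural genes. The mural sum went from 874 and 779 to 803 and 595 with ET-1, and from 815 and 692 to 690 and 388 with PE. The endothelial sum was higher with JQ1 in every same-numbered pair (8.78 and 4.14 against 10.2 and 6.54 in vehicle). Egfl7 had by far the highest median in that sum (4.85), with the other genes at 0.613 or less. Of the 4 endothelial genes tested, 1 rose and 2 fell in each treatment with the block (1 rose and none fell without it). Of the 4 macrophage genes tested 4, 4 and 3 fell with vehicle, ET-1 and PE with the block (none passed without it). The macrophage sum went from 10.6 and 4.68 in vehicle to 4.38 and 0.837 with JQ1. Of the 5 epicardial genes tested 3, 3 and 2 fell with the block (1, 0 and 0 without it). Their sum went from 22.0 and 9.51 in vehicle to 10.6 and 5.17 with JQ1. Of all genes 52.8%, 56.9% and 56.4% were called in these 3 comparisons with the block, and 32.0%, 37.5% and 36.5% without it. The part of these cell types in the differences of Igf1 and the binding proteins was not tested.

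Igfbp7 (ENSRNOG00000002050, chr14:33010300-33070190, plus strand, 1102 nt) rose with JQ1. It stood at 86.7 and 80.8 in vehicle, 99.8 and 77.6 with ET-1, and 93.6 and 69.6 with PE. With JQ1 it reached 113 and 116, 135 and 113, and 149 and 110. All 6 libraries with JQ1 were above all 6 without, and the mean difference was 0.53 ± 0.12 (adjusted p = 0.00432). Singly the differences were 0.45, 0.49 and 0.66 for vehicle, ET-1 and PE (adjusted p = 0.122, 0.0921 and 0.0327; with the block 0.0162, 0.0107 and 0.00245). The PE call was lost on the deposited scale (0.61, adjusted p = 0.144), with no filter (0.053), with only the 2 PE groups fitted (0.119), and without PE replicate 2, PE plus JQ1 replicate 1 or vehicle plus JQ1 replicate 2 (0.182, 0.172 and 0.0501). The agonist differences lay between −0.05 and 0.16, past the threshold in neither fit. The gene LOC103693375, on the opposite strand inside the Igfbp7 span, was listed at 152.5 to 337.1, and Polr2b overlaps its end; the strand setting of the quantification is unknown, and the part of these genes in the Igfbp7 value was not tested.

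Igfbp2, Igfbp3, Igfbp4 and Igfbp6 all stood lower with JQ1 in every same-numbered pair. Igfbp2 (ENSRNOG00000016957, chr9:80118029-80144789), a carrier of IGF-2 next to Igfbp5 on the chromosome, had 5.38 and 2.71 in vehicle, 2.01 and 1.45 with ET-1, and 3.05 and 1.49 with PE. With JQ1 these levels became 1.80 and 0.93, 1.07 and 0.769, and 1.65 and 0.658. The JQ1 mean difference of −0.89 ± 0.25 passed (adjusted p = 0.0159) and did so in all 12 fits with a library left out, while the single treatments passed only with the block. Relative to the fibroblast marker sum the Igfbp2 level with JQ1 was 0.678 to 1.03 of that with DMSO. Igfbp2 was also lower with ET-1 (−0.97 ± 0.44, adjusted p = 0.261; 0.00924 with the block) and PE (−0.71 ± 0.44, adjusted p = 0.382; 0.0213 with the block).

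Igfbp3 (ENSRNOG00000061910, chr14:87457647-87465374), the main carrier of IGFs in blood, was lower with both agonists and with JQ1 in each same-numbered pair. Its levels were 21.5 and 4.93 in vehicle, 5.66 and 1.93 with ET-1, and 7.58 and 2.40 with PE. With JQ1 they were 6.91 and 1.86, 3.06 and 0.978, and 4.24 and 0.987. Replicate 2 of vehicle lay below replicate 1 of both agonists, so the groups overlap. The differences were −1.50 ± 0.97 for ET-1 and −1.17 ± 0.97 for PE (adjusted p = 0.431 and 0.526), and with the block, whose SE was 0.17, they passed (0.00214 and 0.0035). They also passed with the block under JQ1 (−0.87 and −0.66, adjusted p = 0.0186 and 0.0429). JQ1 gave −1.38, −0.75 and −0.87 in the 3 treatments, again past the threshold with the block alone (0.00036, 0.00571 and 0.0029). The same held for their average (adjusted p = 0.155; 3.26e-05 with the block). Relative to the fibroblast marker sum the level with JQ1 was 0.653 to 0.985 of that with DMSO.

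Igfbp4 (ENSRNOG00000010635, chr10:86950557-86962578), an inhibitory binding protein cut by PAPP-A, had 15.0 and 6.35 in vehicle, 11.3 and 3.34 with ET-1, and 15.1 and 4.37 with PE. With JQ1 it had 8.95 and 3.61, 6.24 and 1.62, and 9.57 and 2.58. Igfbp6 (ENSRNOG00000010977, chr7:143749221-143754054), which prefers IGF-2, had 13.5 and 2.50, 11.0 and 1.71, and 10.5 and 2.37 without JQ1, and 5.33 and 1.00, 4.56 and 1.12, and 4.54 and 0.672 with it. For both genes the gap between replicates was wider than that between treatments, and every group overlapped its partner. The JQ1 mean differences of −0.74 ± 0.54 and −1.06 ± 0.72 did not pass (adjusted p = 0.267 and 0.238) but did with the block (0.000111 and 1.8e-05). Set against the fibroblast marker sum, which moved with them, the level of Igfbp4 with JQ1 was 0.943 to 1.26 and that of Igfbp6 0.51 to 1.27 of that with DMSO. With the block Igfbp4 also fell with ET-1, without and with JQ1 (−0.61 and −0.72, adjusted p = 0.0304 and 0.0254), and not past the threshold with PE, and Igfbp6 passed in no agonist comparison.

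**Figure D4:**
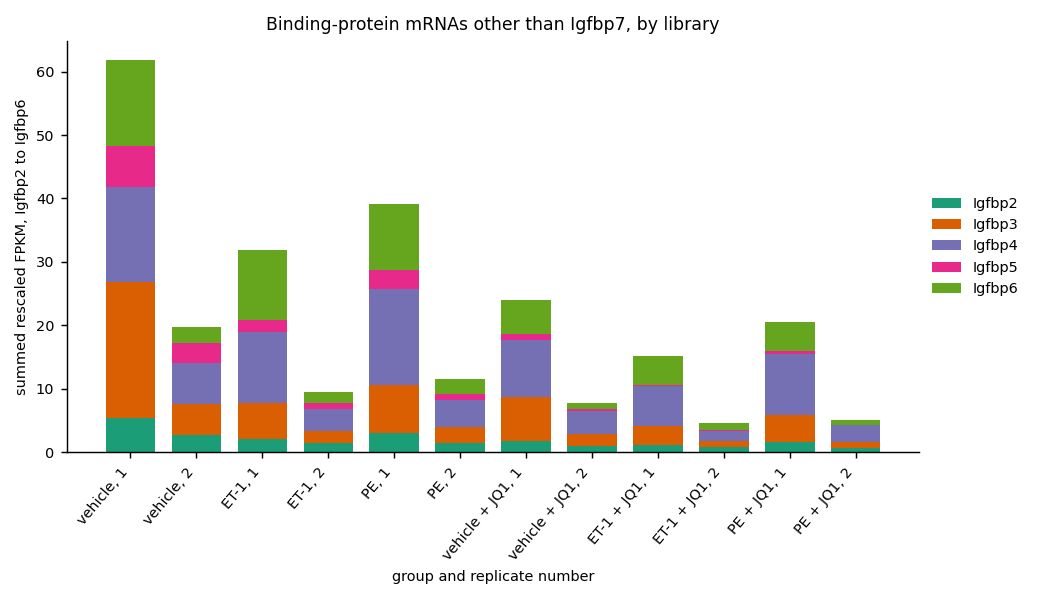
Stacked rescaled FPKM of Igfbp2 to Igfbp6 in each of the 12 libraries. The stack is 61.8 and 19.7 in the 2 vehicle libraries, is lower with each agonist and with JQ1, and reaches 4.56 in ET-1 plus JQ1 replicate 2, with replicate 1 above replicate 2 in every group.

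The mix of binding-protein mRNAs therefore shifted. Igfbp2 to Igfbp6 summed to 61.8 and 19.7 rescaled FPKM in vehicle, 31.9 and 9.48 with ET-1, and 39.2 and 11.6 with PE. With JQ1 the sums were 23.9 and 7.8, 15.1 and 4.56, and 20.5 and 5.0. Igfbp7 made up 58.4% and 80.4% of the Igfbp2 to Igfbp7 total in vehicle and 82.5% and 93.7% in vehicle plus JQ1. With ET-1 its share was 75.8% and 89.1%, and 89.9% and 96.1% when JQ1 was added. With PE it was 70.4% and 85.7%, and 87.9% and 95.7% when JQ1 was added. The Igfbp7 share was thus higher with JQ1 in all 6 same-numbered pairs.

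Counted over the 10 genes, JQ1 changed 1 in vehicle (limma, adjusted p under 0.05), 2 with ET-1 and 2 with PE, where 32.0%, 37.5% and 36.5% of all tested genes were called. Averaged over the treatments 5 were called, Igf1, Igfbp2 and Igfbp5 lower and Igf2r and Igfbp7 higher, against 60.1% of all genes. With the replicate block the counts were 8, 9 and 9, and 9 for the average, beside 52.8%, 56.9%, 56.4% and 73.5% of all genes. The called share of the 10 was thus below that of all genes without the block and above it with the block, and nothing particular to the family is read from it. In sign, 9 of the 10 genes moved the same way in all 6 same-numbered pairs (Igf2 was higher in 5 and lower in 1), as did 67.8% of all genes. By size, the median JQ1 difference over the 10 was −0.93, −0.70 and −0.70 in the 3 treatments and −0.82 on average, beside 0.01, 0.03, 0.01 and 0.02 over all genes. Over the 9 fibroblast markers it was −1.16, −0.89, −0.65 and −0.92. The 10 genes were chosen with earlier results of these data known, so nothing particular to the family is read from its medians.

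For the agonists, ET-1 and PE each changed 1 of the 10 genes, Igf2, beside 2.87% and 6.07% of all genes. With the block ET-1 changed 6 (Igf1r higher; Igf2, Igfbp2, Igfbp3, Igfbp4 and Igfbp5 lower) and PE 5 (the same without Igfbp4), beside 18.4% and 24.0% of all genes. Signs were the same in all 4 pairs, without and with JQ1, for 6 genes with ET-1 and 6 with PE, as for 50.7% and 49.2% of all genes. The median difference was −0.48 with ET-1 and −0.22 with PE, beside −0.02 and −0.01 over all genes and −0.53 and −0.37 over the fibroblast markers. With JQ1 present limma called none of the 10 for ET-1 or PE (1 had an unadjusted p under 0.05 in each, Igf1r), where 1.36% and 0.718% of all genes were called. With the block it called 4 for ET-1 (Igf1r higher; Igfbp3, Igfbp4 and Igfbp5 lower) and 2 for PE (Igf1r higher, Igfbp3 lower), beside 11.6% and 12.1%. PE against ET-1 gave none in either fit and none at an unadjusted p under 0.05, with 0.00725% of all genes called in each fit, and the differences lay between −0.12 and 0.37. The difference of the JQ1 effect between an agonist and vehicle also gave none of the 10 in either fit. At an unadjusted p under 0.05 there was 1 for ET-1, Igf2, and none for PE. Of all genes 0.0% were called for ET-1 and 0.0% for PE without the block, and 0.0363% and 0.0725% with it.

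**Figure D5:**
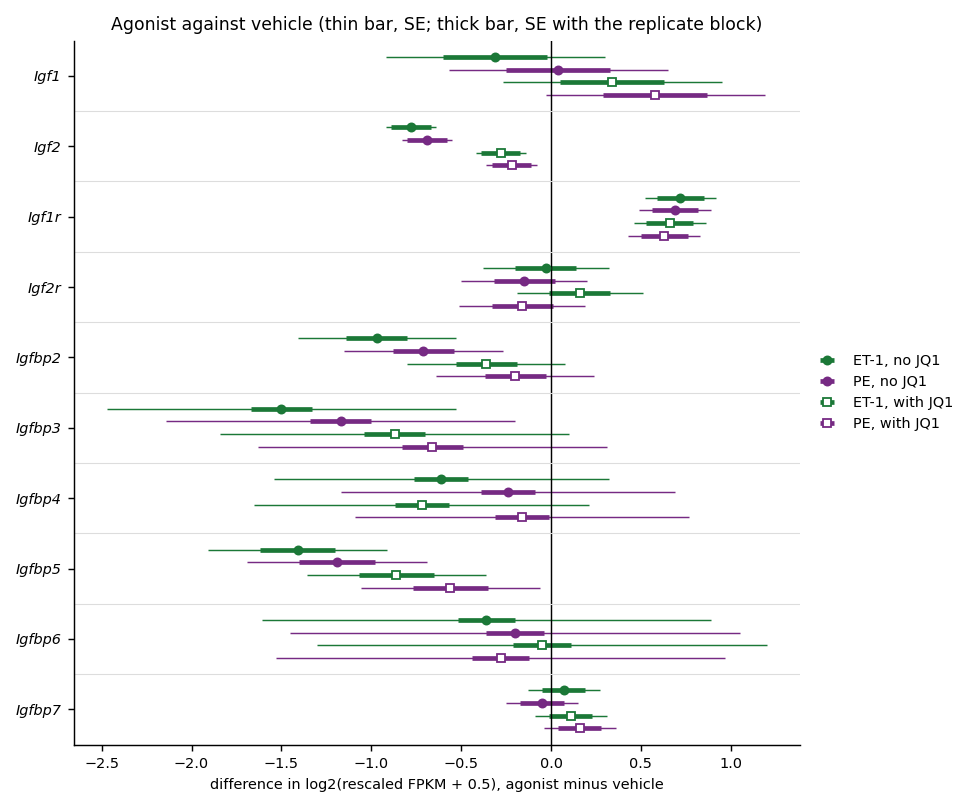
Difference between agonist and vehicle in log2(rescaled FPKM + 0.5) for each gene; filled points are without JQ1, open squares with JQ1, thin bars the SE without and thick bars the SE with the replicate block. Igf1r lies above 0 in all 4 comparisons (0.72, 0.69, 0.66 and 0.63), Igf2 lies below 0 by more without JQ1 (−0.78 and −0.69) than with it (−0.28 and −0.22), and Igfbp2 to Igfbp6 lie below 0 throughout.

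The rest of the IGF and insulin pathway was described from a list of 66 genes, of which 63 were in the tables and 56 were tested. Family members outside the 10 did not pass the filter: Igfbp1, Igfbpl1, Ins1 and Ins2 were listed at 0 in all libraries, and Igfals, the acid-labile subunit, reached at most 0.0637. With JQ1, averaged over the treatments, 21 of the 56 rose and 14 fell (23 and 17 with the block), with a median of 0.10 beside 0.02 over all genes. Of all genes 60.1% were called, or 73.5% with the block, so the pathway's called share was near the background and nothing particular to it is read from the count. The largest falls were those of Igf2bp1 (−1.39 ± 0.14) and Igf2bp3 (−1.22 ± 0.17), RNA-binding proteins named for their binding of Igf2 mRNA. Igf2bp1 went from 4.84 and 6.71 in vehicle to 1.53 and 2.41 with JQ1. Socs2, a brake on growth hormone signalling (−1.17 ± 0.19), Stc1, a stanniocalcin of the family that blocks PAPP-A (−1.07 ± 0.19), and Pik3cd, a PI3-kinase subunit (−0.88 ± 0.15), came next. The largest rises were those of Adam9, a membrane protease that can cut IGFBPs (1.04 ± 0.13), and Foxo3, a transcription factor that AKT inhibits (1.04 ± 0.05). Foxo3 went from 7.08 and 7.73 in vehicle to 12.3 and 13.1 with JQ1. Pik3cb, a PI3-kinase catalytic subunit (0.87 ± 0.14), and Socs1, a brake on cytokine signalling (0.83 ± 0.21), followed. All of these 9 passed without the block (adjusted p at most 0.00962).

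A few pathway genes are named after their values were seen. Akt1 and Akt2, kinases that act downstream of PI3-kinase, fell by 0.43 and 0.41 on the log2 scale with JQ1 (adjusted p = 0.000231 and 0.000275). M6pr, the other mannose 6-phosphate receptor, rose by 0.18 ± 0.05 averaged over the treatments (adjusted p = 0.00891). With JQ1 it went from 32.2 and 29.7 to 33.1 and 31.0 in vehicle. It went from 34.9 and 35.2 to 39.6 and 44.2 with ET-1, and from 35.1 and 35.7 to 41.3 and 43.2 with PE. Its change was smaller than the 1.00 of Igf2r. Insr, the insulin receptor, stood at 11.1 to 15.3 in all groups, and its JQ1 difference of −0.11 ± 0.10 did not pass in either fit (adjusted p = 0.345; 0.101 with the block).

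The agonists called fewer pathway genes. With ET-1, Foxo3 fell (−0.53 ± 0.08, adjusted p = 0.0222) and no other of the 56 was called, beside 2.87% of all genes. PE called 6, beside 6.07%. With PE, Irs2, an adaptor of the insulin and IGF-1 receptors, rose (0.74 ± 0.14, adjusted p = 0.0281), from 5.71 and 6.77 to 9.82 and 11.7. Foxo1 (−0.68), the adaptor Grb2 (−0.49), the PI3-kinase subunit Pik3r2 (−0.49), Foxo3 (−0.49) and Tsc2 (−0.28), an inhibitor upstream of mTOR, fell with PE. With JQ1 present ET-1 called none and PE called Irs2 (0.87 ± 0.14, adjusted p = 0.0484), beside 1.36% and 0.718% of all genes. With the block ET-1 called 5 higher and 7 lower and PE 7 higher and 9 lower, beside 18.4% and 24.0% of all genes. Under JQ1 the block gave 5 higher and 6 lower for ET-1 and 5 higher and 2 lower for PE, beside 11.6% and 12.1%. Nothing particular to the pathway is read from these counts. The pathway medians were −0.04 for both agonists.

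The genes whose profiles over the 12 libraries were most like each member were found by the root mean square difference of centred log2 values, among 9348 or 9349 other genes with a mean of at least 5 rescaled FPKM. Igfbp6 (own spread 1.16) was closest to the collagen genes Col5a3 (0.19) and Col6a1 (0.21), and Igfbp4 (0.89) to Angptl2 (0.19) and Bgn (0.22). Igfbp5 (1.09) was closest to Eln, elastin (0.31), and Npr3 (0.35), and Igfbp3 (1.08) to Ptn (0.37) and Fcgrt (0.40). Igfbp2 (0.64) was closest to Gaa (0.23) and Aga (0.24), both of which encode lysosomal enzymes, and Igf1 (0.80) to Fkbp10 (0.28). Igf2r (0.59) was closest to Eml4 (0.16) and Lta4h (0.20), and Igfbp7 (0.31) to Dpp3 (0.09) and Nit1 (0.11). Igf1r (0.36) was closest to AABR07047011.1 (0.11) and Myl12b (0.12), and Igf2 (0.29) to Usp2 and Ptov1 (0.13 each). All profiles come from the same 12 libraries and so share their depth and their differences between replicates.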

How the data were processed

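RNA from 12 cardiomyocyte samples was purified on columns with DNase and depleted of ribosomal RNA before stranded library preparation, per the labels' protocols. Per the submitters' processing notes the tools were StringTie 1.3.4d, STAR 2.7.1a, Trim Galore 0.6.0 and DESeq2 1.24.0, on rn6 (Rnor_6.0). Per the file headers, the deposited tables gave the coverage (signal) per base and the FPKM of each of 41078 transcripts. Coverage times length summed to 2.341 to 2.965 Gb per library; the files give no read counts, so no counting interval is given.

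The authors' FPKM values were summed by gene and divided by library factors of 0.873 to 1.127, the median of ratios over 15551 genes. Genes that reached 1 rescaled FPKM in 2 or more libraries were tested with limma 3.58.1 (R 4.3.3; trended, robust) on log2(value + 0.5), over all 12 libraries and 6 group means. P-values were adjusted by Benjamini-Hochberg over all 13793 genes within a comparison, with a threshold of 0.05. The fit was checked on simulated data that held no difference between replicates. That check therefore does not show how the fit without the block behaves on these libraries. Differences are on that log2 scale and understate changes of low genes. Tables and figures were made with Python 3.11.15 and matplotlib 3.10.9.

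Within a group 3.7 to 4.67% of genes agreed within 1% between replicates, so no library repeats its partner. The labels do not say what a replicate number marks; over all 15 pairs of groups, however, the same-numbered libraries departed together from their group means (r = 0.16 to 0.67), and the numbers were taken, from the data, to pair libraries. The block fit is given where it changes a call or a count. All 10 members are named, with pathway genes called in a comparison (at most 5 each way by size) and the 2 genes most like each member. Some genes that this rule would name are not reported here. The members and lists were chosen with earlier results of these data known. Alternatives were other pseudocounts, filters and scales, length-weighted gene values, only the groups compared, the block, and leaving out each library.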

Additional observations from a re-analysis of the deposited data

How the results depend on the processing

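The JQ1 differences averaged over the 3 treatments (5 genes called) were the firmest: Igf1, Igf2r, Igfbp2, Igfbp5 and Igfbp7 passed in all 12 fits with a library left out. The replicate block moved the counts most, to 8, 9 and 9 genes for JQ1 with vehicle, ET-1 and PE, 9 for their average, 6 and 5 for ET-1 and PE, and 4 and 2 for them under JQ1. A minimum of 5 rescaled FPKM, which removes low genes from the test, gave 0, 1, 1 and 2 genes for the JQ1 comparisons and 0 for each agonist. For JQ1 with ET-1 and with PE a pseudocount of 1 left 1 gene each, and no filter or the deposited scale left 0. With only the groups compared the counts were 2 for JQ1 with vehicle, 1 with PE, and 0 for ET-1 and for PE against vehicle. Length-weighted values left 0 for PE against vehicle; these causes were not tested.

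Leaving out each library in turn gave 1 gene throughout for JQ1 with vehicle (7 to 8 with the replicate block), 0 to 2 for JQ1 with ET-1 (4 to 9) and with PE (5 to 9), and 5 to 6 for the average (8 to 9). It gave 0 to 1 for ET-1 (4 to 6) and for PE (1 to 5), and 0 under JQ1 (0 to 4 and 0 to 2). Of 1642 alternative values for 52 results, 1126 kept direction and side of the threshold, 452 passed newly, 56 no longer passed and 8 changed sign, all of them fits with a library left out and no block. The 52 results were those past the threshold without or with the block, and many of the alternatives also used the block. The numbers passing newly or no longer passing therefore follow in part from that choice and do not measure firmness. Leaving out each library gave −2.01 to 0.37 for Igfbp6, JQ1 with ET-1 (above 0 without ET-1 replicate 1, and 0.01 without ET-1 plus JQ1 replicate 2). For Igfbp4 it gave −1.50 to 0.21 for JQ1 with PE (0.19 without PE replicate 1, 0.21 without PE plus JQ1 replicate 2), −1.43 to 0.20 for ET-1 (0.20 without ET-1 replicate 2) and −1.55 to 0.11 for ET-1 under JQ1 (0.11 without ET-1 plus JQ1 replicate 2). For Igfbp3 it gave −1.49 to 0.18 for PE under JQ1 (0.17 without vehicle plus JQ1 replicate 1, 0.18 without PE plus JQ1 replicate 2). With 2 libraries a group and levels near or under 1 FPKM for Igf1 and Igfbp5 under JQ1, differences between those groups are poorly resolved.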
